A study of Mus musculus with 30 samples.

Results

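Expression of 10 genes of bile acid synthesis, transport and sensing was followed in cultured mouse hepatocytes and macrophages exposed to compounds that act on the liver X receptors (LXR). The genes were Cyp7a1, Cyp8b1, Cyp27a1, Cyp7b1, Baat, Abcb11, Slc10a1, Slco1b2, Nr1h4 and Nr0b2. They were chosen by symbol, and all 10 were found among the 24453 genes of the hepatocyte table and among the 24063 genes of the macrophage table. Polyadenylated RNA was sequenced from hepatocytes kept in Hepatozyme medium and from thioglycollate-elicited macrophages kept in RPMI. Every culture, vehicle included, was moved 24 hours before treatment into lipid-deficient 10% serum with 50 µM mevalonate and 10 µM mevastatin, a statin that blocks cholesterol synthesis, and then stayed there for 18 to 20 hours with ligand. The 6 groups of each cell type were vehicle (DMSO or ethanol), desmosterol at 10 µM, and DMHCA, MePipHCA, GW3965 and T0901317 at 1 µM. Each group had 2 hepatocyte or 3 macrophage libraries, and the labels give neither strain, sex nor age of the mice. Nothing says whether replicates came from separate animals or cultures, so a p-value here reflects spread among libraries that may be technical. The number of libraries limits every statement below.

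Bile acids are made in hepatocytes from cholesterol. Cyp7a1 catalyses the first and rate-limiting step of the classic pathway, Cyp27a1 and Cyp7b1 act in the alternative pathway, and Cyp8b1 adds the hydroxyl group that makes cholic acid. Baat joins the finished acids to taurine or glycine, Abcb11 (the bile salt export pump) secretes them into bile, and Slc10a1 and Slco1b2 take them up from blood. The nuclear receptor FXR, encoded by Nr1h4, senses bile acids and induces Nr0b2 (SHP), a repressor of Cyp7a1. In mice Cyp7a1 is a known LXR target in liver. Desmosterol is a cholesterol precursor that binds LXR, DMHCA and MePipHCA are cholenamides that differ in the amine of the side-chain amide, and GW3965 and T0901317 are synthetic LXR agonists without a sterol skeleton.

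The promoter sequences shown here are those of a member that fell in macrophages (Cyp27a1), of a known FXR target that was well expressed in hepatocytes (Abcb11), and of a bile acid gene outside the set that rose with 2 LXR agonists in hepatocytes (Abcc2). Each is the 250 bases before the RefSeq start site, 5′ to 3′ on the gene's strand (GRCm38.p6).
Cyp27a1, chr1:74713285-74713534, plus strand: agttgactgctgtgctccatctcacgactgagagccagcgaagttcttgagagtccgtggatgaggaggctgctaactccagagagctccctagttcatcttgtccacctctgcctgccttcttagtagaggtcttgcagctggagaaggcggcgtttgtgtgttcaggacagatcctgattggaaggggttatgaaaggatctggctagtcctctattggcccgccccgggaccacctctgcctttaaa
Abcb11, chr2:69342617-69342866, minus strand: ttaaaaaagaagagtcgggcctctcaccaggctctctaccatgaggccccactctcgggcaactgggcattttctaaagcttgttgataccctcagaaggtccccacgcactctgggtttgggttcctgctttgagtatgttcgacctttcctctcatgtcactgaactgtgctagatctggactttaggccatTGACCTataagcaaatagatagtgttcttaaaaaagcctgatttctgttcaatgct
Abcc2, chr19:43782058-43782307, plus strand: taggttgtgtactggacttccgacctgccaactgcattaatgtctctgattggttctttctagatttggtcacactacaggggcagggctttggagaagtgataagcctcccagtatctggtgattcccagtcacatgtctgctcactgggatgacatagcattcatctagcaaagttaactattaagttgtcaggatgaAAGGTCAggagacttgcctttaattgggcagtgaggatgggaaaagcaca
Capitals mark matches, on either strand, to the nuclear receptor recognition sequence AGGTCA or to AAGGTCA, which contains it. The Abcb11 window holds TGACCT, that sequence on the opposite strand, 56 to 51 bases before the start, and the Abcc2 window holds AAGGTCA 50 to 44 bases before it. Such matches are common: AGGTCA lay in 14.02% and AAGGTCA in 4.079% of 32851 promoter windows of this length. As exact matches, the paired motifs AGGTCANAGGTCA, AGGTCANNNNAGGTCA and AGGTCANTGACCT were in 0.03348%, 0.01522% and 0.006088% of them and in none of the windows of the members that the RefSeq table holds. That table had entries for 7 of the 10 members. Near matches were not counted. In the Abcb11 window TGACCT follows aggccat, which comes close to the AGGTCAN of the last motif without matching it. A match is a description of the letters in this window only.

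Depth ran from 6627812 to 18626562 exon counts per hepatocyte library and from 3862655 to 15685961 per macrophage library. A list of 8 hepatocyte markers summed to between 32740 and 40560 CPM (counts relative to library depth) in the hepatocytes, against 517 to 894 CPM in the macrophages. There only 1 of the 8 reached the minimum count for a test, and Ttr, Fgb and Tat had 0 counts. A list of 8 macrophage and Kupffer cell markers summed to 181 to 325 CPM in the hepatocytes and, for the 7 in the macrophage table, to 12190 to 17060 CPM in macrophages, where the Kupffer cell marker Clec4f had 0 counts. LXR target genes checked the treatments. In hepatocytes Abca1, a cholesterol exporter, rose by a log2 fold change of 2.24 ± 0.09 (SE) with GW3965 and 2.40 ± 0.09 with T0901317 and fell by 0.78 ± 0.09 with MePipHCA, while desmosterol (0.21 ± 0.09) and DMHCA (-0.09 ± 0.09) did not pass the test. In macrophages Abca1 rose by 2.99 ± 0.05 with desmosterol, 3.76 ± 0.05 with DMHCA, 4.19 ± 0.05 with MePipHCA, 4.31 ± 0.05 with GW3965 and 4.33 ± 0.05 with T0901317. Srebf1, another LXR target, rose there by 0.47 ± 0.06, 1.53 ± 0.06, 0.89 ± 0.07, 2.59 ± 0.06 and 2.60 ± 0.06 in the same order.

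In the cultured hepatocytes 5 of the 10 genes were expressed at 1 CPM or more in all 12 libraries: Cyp27a1, Abcb11, Nr1h4, Cyp7b1 and Cyp8b1. Baat, Slc10a1 and Slco1b2 fell below that level in at least 1 library, always one with GW3965, T0901317 or MePipHCA. In both vehicle libraries they were above it (Baat 2.178 and 2.565 CPM, Slc10a1 5.29 and 3.02, Slco1b2 3.03 and 2.72). Nr0b2 stayed below it in all 12, at 0.913 CPM or less, and Cyp7a1 was nearly undetected. Levels are compared between genes per transcript length, as the authors' deposited RPKM, given as mean ± SD over 12 libraries of 6 groups. Cyp27a1 stood highest at 44.2 ± 2.42 RPKM, above 93.6% of the genes in the table. Abcb11 (10.3 ± 1.39) and Nr1h4 (10.1 ± 2.62) followed and did not differ beyond their spread. Cyp7b1 came next at 5.11 ± 0.679 RPKM. Cyp8b1 (1.57 ± 0.574), Slc10a1 (1.22 ± 0.680) and Baat (0.833 ± 0.405) overlapped each other, as did Slco1b2 (0.435 ± 0.217) and Nr0b2 (0.263 ± 0.168). Cyp7a1 was at 0.0115 ± 0.0218 RPKM.

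**Figure D1:**
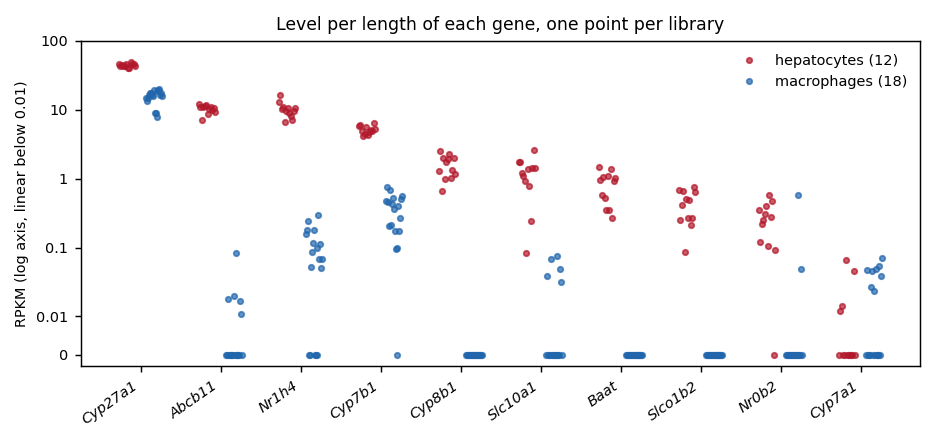
RPKM of the 10 genes (y axis, log scale that is linear below 0.01), 1 point per library, in 12 hepatocyte and 18 macrophage libraries, which were normalised in separate tables. Cyp27a1 is the highest of the 10 in both cell types, and Cyp8b1, Baat and Slco1b2 lie at 0 in every macrophage library.

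Cyp7a1 (NM_007824, chr4:6265612-6275631, mm10, minus strand) had 11 counts among 163710873 over all 12 hepatocyte libraries. There were 6 counts in GW3965 replicate 2, 3 in vehicle replicate 1, and 1 each in desmosterol replicate 2 and DMHCA replicate 1, and the other 8 libraries had 0. Neither library with T0901317 or with MePipHCA had a count, which allows up to 0.119 and 0.0981 CPM (3 counts over the group). Their exact Poisson 95% intervals reached 0.146 and 0.121 CPM. Vehicle stood at 0.154 CPM with an interval of the same kind of 0.0318 to 0.45, so the intervals overlapped. Intervals and floors of this kind cover counting error only. The macrophages, in which the gene is not known to act, had 17 counts among 144458736, and the ratio of the pooled hepatocyte level to theirs was 0.571 (exact conditional 95% interval 0.242 to 1.29). The gene did not reach the minimum count for a test, so an LXR response of Cyp7a1 was not detectable in these cultures.

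The effect of each ligand on the 9 other genes was tested in hepatocytes with edgeR's quasi-likelihood test, Benjamini-Hochberg adjusted over 13176 genes. None of the 9 passed an adjusted p of 0.05 with any ligand against vehicle, nor in any of 4 pairs of ligands at 1 µM. Of these 81 tests 6 had an unadjusted p under 0.05, the lowest adjusted p was 0.243, and DESeq2 also called 0. The background was low: among all genes 0.364% were called with desmosterol, 0% with DMHCA, 2.17% with MePipHCA, 0.478% with GW3965 and 0.941% with T0901317. For DMHCA, 615 genes had an unadjusted p under 0.05 and DESeq2 also called 0. With so few genes called, 0 of 9 members is near the background. The members' median log2 fold change was 0.16, -0.22, -0.15, -0.25 and -0.27 in the same order of ligands, against medians within 0.002 of 0 over all genes tested. All 5 comparisons share the same 2 vehicle libraries. Counts of ligand libraries above or below vehicle, given below for single genes, are therefore not independent. How often other genes separate in this way was not worked out, so these counts only describe the libraries.

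**Figure D2:**
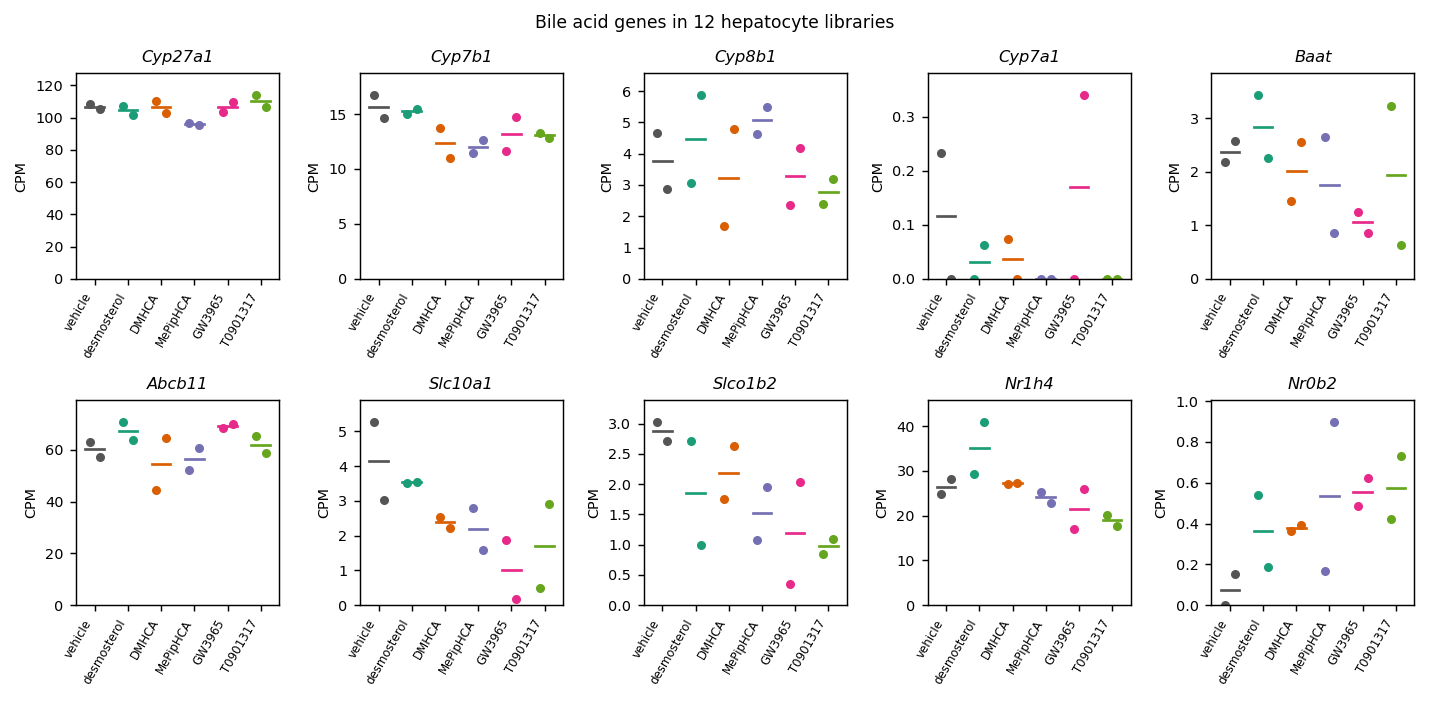
TMM-scaled CPM of the 10 genes in the 12 hepatocyte libraries (points) by group (x axis), with each group's mean as a bar. The panels have separate axes from 0: Cyp27a1 stays between 95.5 and 114 CPM, whereas Slc10a1 ranges from 0.170 to 5.29 CPM.

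Among the synthesis enzymes, Cyp27a1 (NM_024264, chr1:74713535-74737897, plus strand), the mitochondrial sterol 27-hydroxylase, was the most even. Vehicle libraries held 108 and 105 CPM, desmosterol 107 and 102, DMHCA 110 and 103, MePipHCA 96.8 and 95.5, GW3965 103 and 110, and T0901317 114 and 107. Only the MePipHCA libraries were both below the other 10. The log2 fold change was -0.15 ± 0.10 (95% interval -0.35 to 0.04, adjusted p = 0.587) with MePipHCA and 0.05 ± 0.10 (-0.15 to 0.24) with T0901317.

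Cyp7b1 (NM_007825, chr3:18071950-18243338, minus strand), the oxysterol 7-alpha-hydroxylase, measured 16.7 and 14.7 CPM with vehicle, 15.1 and 15.5 with desmosterol and 11.4 and 12.7 with MePipHCA. Of the 10 ligand libraries, 7 lay below both vehicle libraries and none above them. The lowest estimate was -0.39 ± 0.21 with MePipHCA (interval -0.81 to 0.04, adjusted p = 0.490), and that for DMHCA was -0.35 ± 0.21. Cyp8b1 (NM_010012, chr9:121914356-121916305, minus strand), the sterol 12-alpha-hydroxylase, had 60 and 19 counts with vehicle and 19 to 104 over all libraries. Vehicle replicate 2 was the shallowest library (6627812 exon counts), and scaled to depth the vehicle pair of Cyp8b1 was 4.66 and 2.87 CPM. Cyp8b1 replicates differed as much as its groups, with 34 and 94 counts under desmosterol and 23 and 73 under DMHCA. Its fold changes ran from -0.48 ± 0.49 (T0901317) to 0.40 ± 0.46 (MePipHCA). Baat (NM_007519, chr4:49489418-49506558, minus strand) had 28 and 17 counts with vehicle (2.18 and 2.57 CPM), 18 and 15 with GW3965, and 46 and 7 with T0901317. Its lowest estimate was -1.17 ± 0.73 with GW3965 (interval -2.65 to 0.32).

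The transporters separated by level. The exporter Abcb11 (NM_021022, chr2:69238282-69342616, minus strand) measured 63.1 and 57.4 CPM with vehicle, 70.9 and 64.0 with desmosterol, 44.7 and 64.6 with DMHCA, 52.3 and 60.7 with MePipHCA, 68.5 and 70.0 with GW3965, and 65.2 and 58.7 with T0901317. Its interval with GW3965 was -0.08 to 0.48 and with T0901317 -0.25 to 0.32 on the log2 scale. Exons of Abcb11 overlap Gm13613 and Gm13614 on the opposite strand in GENCODE M21, and the count headers state no strand option.

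The uptake carriers were low and uneven. Slc10a1 (NTCP; NM_001177561, chr12:80953185-80968079, minus strand) had 68 and 20 counts with vehicle, 39 and 57 with desmosterol, 35 and 34 with DMHCA, 34 and 30 with MePipHCA, 27 and 3 with GW3965, and 7 and 32 with T0901317. Scaled to depth, the vehicle libraries measured 5.29 and 3.02 CPM, and 8 of the 10 ligand libraries lay below both. With GW3965 the log2 fold change was -2.08 ± 0.73 (interval -3.58 to -0.59, adjusted p = 0.316); it passed only when genes with low counts were not filtered out (adjusted p = 0.0199). The value was -4.56 without GW3965 replicate 1 and -1.17 without GW3965 replicate 2. Slco1b2 (NM_020495, chr6:141629518-141686635, plus strand) measured 3.03 and 2.72 CPM with vehicle, and all 10 ligand libraries lay below, between 0.349 and 2.70 CPM. The highest of them, desmosterol replicate 1, was next to the lower vehicle library. Its lowest estimate was -1.58 ± 0.76 with T0901317 (interval -3.12 to -0.03, adjusted p = 0.389).

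Of the FXR genes, Nr1h4 (NM_001163504, chr10:89454234-89533622, minus strand) measured 24.9 and 28.1 CPM with vehicle, 29.3 and 41.0 with desmosterol, 27.0 and 27.4 with DMHCA, 25.4 and 22.7 with MePipHCA, 17.01 and 25.85 with GW3965, and 20.2 and 17.7 with T0901317. The desmosterol libraries were above both vehicle libraries and the T0901317 libraries below them. The estimates were 0.42 ± 0.19 (adjusted p = 0.534) and -0.47 ± 0.19 (adjusted p = 0.290). The first was 0.15 without desmosterol replicate 2 and 0.64 without desmosterol replicate 1. Nr0b2 (NM_011850, chr4:133553376-133556686, plus strand) had 0 and 1 counts with vehicle, 6 and 3 with desmosterol, 5 and 6 with DMHCA, 2 and 17 with MePipHCA, 7 and 11 with GW3965, and 6 and 8 with T0901317. All 10 ligand libraries were above vehicle, by as little as 0.165 against 0.151 CPM. The ratio of pooled levels to vehicle ran from 6.49 for desmosterol (exact conditional 95% interval 0.900 to 285) to 12.1 for MePipHCA (1.92 to 503), where the vehicle level rests on 1 count and the interval holds counting error only. The fitted estimates, from 2.50 ± 1.81 to 3.19 ± 1.73, had adjusted p between 0.467 and 0.973. On library totals, Nr0b2 met the minimum count for a test only through MePipHCA replicate 2 (0.913 CPM) and T0901317 replicate 2 (0.724 CPM). Entry to the test thus rested on ligand libraries where Nr0b2 was high, so these estimates are not read as support for a rise.

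**Figure D3:**
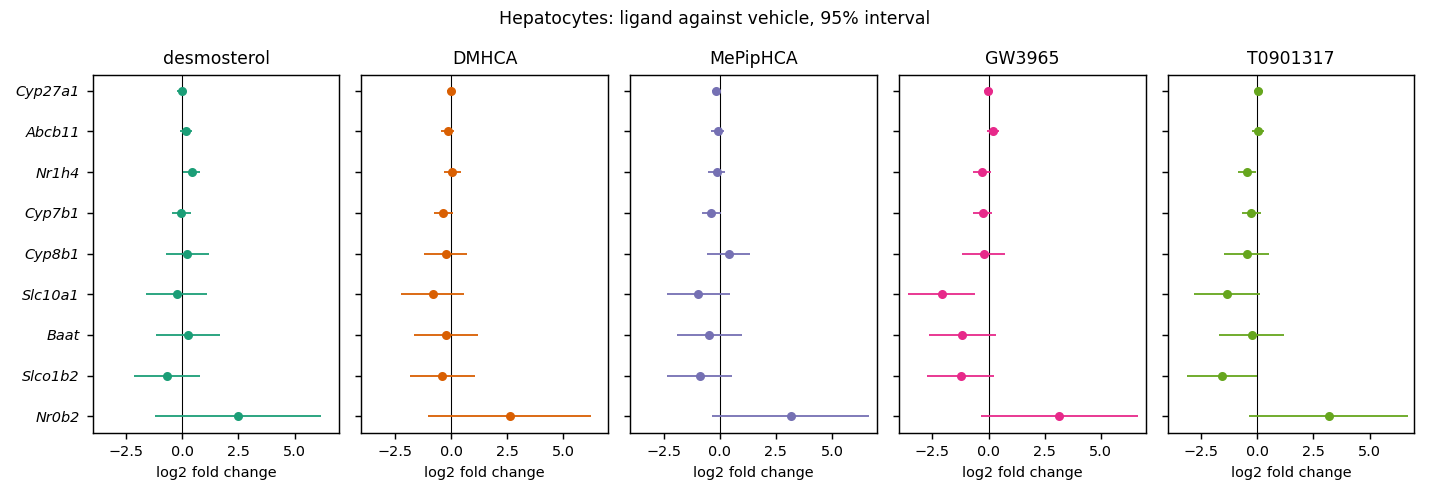
Log2 fold change against vehicle (x axis, points) with the 95% interval of the quasi-likelihood fit (bars) for the 9 tested genes in hepatocytes, 1 panel per ligand. Intervals are narrow for Cyp27a1 (-0.35 to 0.04 with MePipHCA) and widest for Nr0b2 (-0.33 to 6.65 with MePipHCA).

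Ligands at the same dose of 1 µM were then compared with each other over 4 pairs, with each p adjusted over all genes of its pair. None of the 9 tested members differed, where 3.3% of all genes were called for MePipHCA against DMHCA, 0% for GW3965 against T0901317 (667 at an unadjusted p under 0.05, and 0 by DESeq2), 0.987% for DMHCA against T0901317 and 6.05% for MePipHCA against T0901317. Between the 2 cholenamides the difference in Cyp27a1 (MePipHCA minus DMHCA) was -0.15 ± 0.09 with an interval of -0.34 to 0.05, and that in Abcb11 was 0.05 ± 0.14 (-0.23 to 0.33). For Nr1h4 it was -0.18 ± 0.18 (-0.55 to 0.19), and for Cyp8b1 0.64 ± 0.45 (-0.29 to 1.57). The Cyp8b1 value was 0.08 without DMHCA replicate 1 and 1.59 without DMHCA replicate 2. Between GW3965 and T0901317 the Cyp27a1 interval was -0.25 to 0.14 and the Abcb11 interval -0.12 to 0.43. Nr1h4 was higher with DMHCA than with T0901317 by 0.52 ± 0.19 without passing the test (adjusted p = 0.243). Desmosterol was given at another dose and was not compared with the other ligands.

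A list of 45 further bile acid genes, 40 of them tested in hepatocytes, held the few that changed. With GW3965 and with T0901317, 1 gene rose and 1 fell, where 0.478% and 0.941% of all genes tested were called. Abcc2 (MRP2), a canalicular exporter of conjugated bile acids and bilirubin, measured 211 and 208 CPM with vehicle, 360 and 295 with GW3965 and 343 and 330 with T0901317. It rose by 0.64 ± 0.10 (adjusted p = 2.9e-04) and 0.68 ± 0.10 (adjusted p = 1.0e-04), and its libraries did not overlap those of vehicle. With desmosterol Abcc2 measured 164 and 155 CPM and with MePipHCA 180 and 153, all below vehicle, and these differences of -0.40 ± 0.10 (adjusted p = 0.0776) and -0.33 ± 0.10 (adjusted p = 0.0775) did not pass. It did not pass with DMHCA (-0.12 ± 0.10), and it was lower with DMHCA than with T0901317 by 0.80 ± 0.10 (adjusted p = 5.7e-06). In the comparisons where Abcc2 rose, 2 of 7 tested macrophage and Kupffer cell markers and 1 of 8 hepatocyte markers rose with GW3965, and 1 of 7 and 0 of 8 rose with T0901317. The macrophage and Kupffer cell list summed to 253 to 325 CPM with GW3965 and 260 to 317 with T0901317 against 258 to 269 with vehicle; its part in the result was not tested.

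Cyp2c70, the enzyme that makes muricholic acids in mice, was the gene that fell. It measured 126 and 118 CPM with vehicle, 88.0 and 82.4 with GW3965, 76.5 and 95.2 with T0901317, 81.3 and 81.8 with MePipHCA, and 189 and 160 with desmosterol. It fell by 0.52 ± 0.11, 0.51 ± 0.11 and 0.58 ± 0.11 with the first 3 ligands and rose by 0.52 ± 0.11 with desmosterol. Cyp2c70 belongs to a family of similar genes, so part of its counts may come from relatives.

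MePipHCA lowered 4 of the 40 genes and raised none, where 2.17% of all genes were called. Beside Cyp2c70 these were Abcb4, the canalicular phospholipid transporter (-0.65 ± 0.13, adjusted p = 0.0034), Hnf4a, a transcription factor of hepatocyte genes (-0.41 ± 0.08, adjusted p = 0.0027), and Ephx1, an epoxide hydrolase (-0.37 ± 0.09, adjusted p = 0.028). Hnf4a measured 514 and 495 CPM with vehicle, 380 and 381 with MePipHCA and 628 and 676 with desmosterol, with which it rose by 0.37 ± 0.08. Desmosterol raised Cyp2c70 and Hnf4a and lowered none of the 40 genes, where 0.364% of all genes were called. DMHCA called none, where 0% were, with 2 genes at an unadjusted p under 0.05 for DMHCA and DESeq2 calling none. The list's median log2 fold change was -0.36 with MePipHCA, 0.10 with desmosterol and within 0.06 of 0 with the other 3 ligands. In the same MePipHCA comparison 2 of 8 hepatocyte markers fell, and the marker sum was 32760 to 35730 CPM against 34850 to 40410 with vehicle; its part in the result was not tested.

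With 2 libraries a group, several of these calls depended on 1 library. Abcc2 passed without any 1 library, as did Cyp2c70 with MePipHCA. Cyp2c70 was lost with GW3965 without any 1 of its 4 libraries (adjusted p 0.0506 to 0.215). With T0901317 it was lost without T0901317 replicate 1 (0.295), vehicle replicate 1 (0.121) or vehicle replicate 2 (0.0542). With desmosterol it was lost without desmosterol replicate 1 (0.391), vehicle replicate 1 (0.0797) or vehicle replicate 2 (0.334). Hnf4a with desmosterol was lost without any 1 of the 4 libraries (0.0536 to 0.391), and with MePipHCA without MePipHCA replicate 1 (0.0548) or 2 (0.0568). Abcb4 was lost without MePipHCA replicate 1 (0.0592) or vehicle replicate 1 (0.121). Ephx1 was lost without MePipHCA replicate 1 (0.285), MePipHCA replicate 2 (0.162) or vehicle replicate 1 (0.315).

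**Figure D4:**
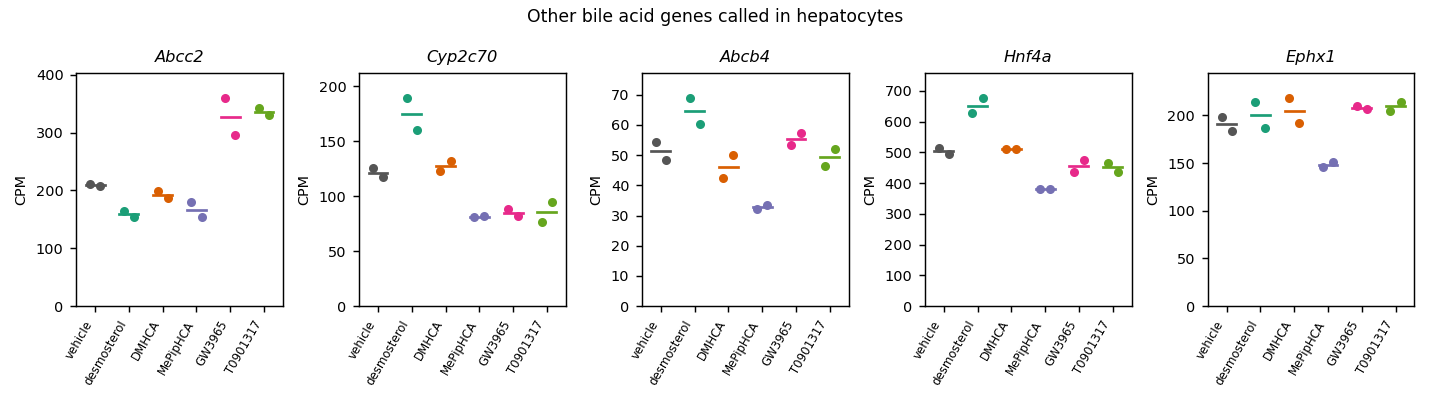
TMM-scaled CPM (y axis from 0) of the 5 further bile acid genes called in hepatocytes, 1 point per library with group means as bars, by group (x axis). The Abcc2 libraries with GW3965 and T0901317 lie between 295 and 360 CPM, above the vehicle libraries at 208 and 211.

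In macrophages, which do not make bile acids but use Cyp27a1 to turn cholesterol into 27-hydroxycholesterol, only Cyp27a1 was expressed at 1 CPM or more in all 18 libraries. It stood at 15.6 ± 3.65 RPKM (SD, n = 18), and Cyp7b1 at 0.353 ± 0.212. Cyp8b1, Baat and Slco1b2 had 0 counts among 144458736, which allows up to 0.0208 CPM. Nr1h4 had 37 counts in all, Abcb11 6, Slc10a1 5 and Nr0b2 4. The last 4 and Cyp7a1 were too low to test.

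In macrophages Cyp27a1 fell with MePipHCA to 0.514 times the vehicle level. Vehicle libraries held 34.9, 37.9 and 34.1 CPM, MePipHCA 19.3, 19.8 and 16.7, DMHCA 36.1, 39.1 and 38.7, GW3965 36.0, 34.7 and 41.7, T0901317 41.1, 42.0 and 43.6, and desmosterol 32.0, 29.5 and 31.5. The 3 MePipHCA libraries were below the 15 others. The log2 fold change was -0.96 ± 0.10 against vehicle (adjusted p = 3.8e-10), where 35.4% of all 11544 genes tested were called. Of the tested members 2 of 2 were called lower, but the other, Cyp7b1, has the limit given below. At the same dose it was -1.05 ± 0.11 against DMHCA (adjusted p = 5.1e-10, 22.9% of genes called) and -1.21 ± 0.11 against T0901317 (adjusted p = 5.0e-12, 25.9% called).

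The other ligands did not pass for Cyp27a1, where 9.5% of genes were called with desmosterol, 11.7% with DMHCA, 13.2% with GW3965 and 12.8% with T0901317. All 3 T0901317 libraries were above, and all 3 desmosterol libraries below, every vehicle library. The estimates were 0.25 ± 0.09 with T0901317 (adjusted p = 0.0547, and 0.0464 without vehicle replicate 2), -0.21 ± 0.08 with desmosterol (adjusted p = 0.121), 0.09 ± 0.09 with DMHCA and 0.08 ± 0.09 with GW3965. Cyp27a1 did not pass between GW3965 and T0901317 (-0.17, interval -0.36 to 0.02, 0.0173% of genes called) nor between DMHCA and T0901317 (-0.16, interval -0.35 to 0.04, 5.12% called).

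Cyp7b1 was near the limit of detection in macrophages, with 7, 20 and 16 counts with vehicle and 2, 1 and 0 with MePipHCA. The ratio of the pooled levels was 0.169 (exact conditional 95% interval 0.0334 to 0.526). The estimate with MePipHCA was -2.43 ± 0.78 on the log2 scale (adjusted p = 0.0123). Cyp7b1 met the minimum count for a test only through libraries where it was high, none of them with MePipHCA. On library totals these were desmosterol replicate 2 (1.861 CPM), DMHCA replicate 2 (1.729) and vehicle replicate 3 (1.373). Entry to the test thus favoured a low value with MePipHCA, and the call is not read as support for a fall. The call was lost without MePipHCA replicate 3, the library at 0 counts (-1.65, adjusted p = 0.141). The gene was too low to test when libraries were thinned to equal depth or when only MePipHCA and vehicle were fitted. Against DMHCA, which had 2, 10 and 4 counts, the difference of -2.20 ± 0.88 did not pass (adjusted p = 0.0672, and 0.0446 without DMHCA replicate 3). T0901317 had 1, 4 and 5 counts, 0.452 times the vehicle level by pooled counts (0.203 to 0.914), and its estimate of -1.07 ± 0.58 against vehicle did not pass (adjusted p = 0.279). MePipHCA did not differ from T0901317 past the threshold (-1.36 ± 0.98, adjusted p = 0.347), so a lower level of Cyp7b1 was not shown to be particular to MePipHCA.

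**Figure D5:**
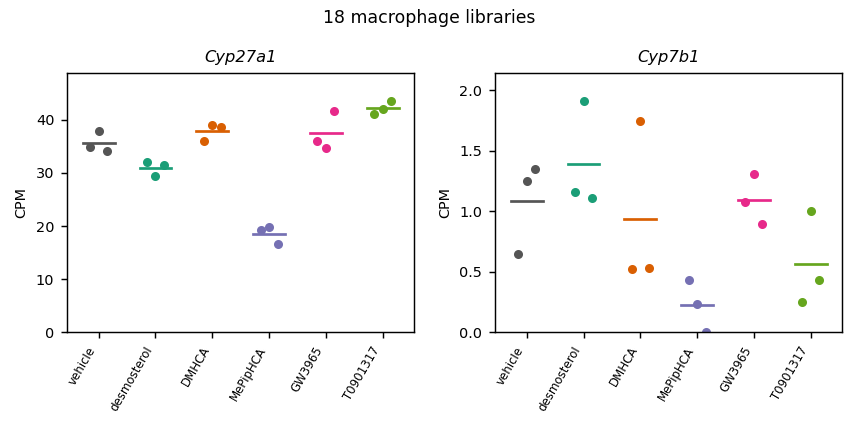
TMM-scaled CPM (y axis from 0) of Cyp27a1 and Cyp7b1 in the 18 macrophage libraries (points) by group (x axis), with group means as bars. Cyp27a1 in the 3 MePipHCA libraries lies between 16.7 and 19.8 CPM, below every other library, and Cyp7b1 never exceeds 1.91 CPM.

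The macrophage cultures held signal of other cell types that moved with MePipHCA. All 6 stellate cell and fibroblast markers fell, and their sum was 84.6 to 102 CPM against 250 to 321 with vehicle. All 3 mesothelial markers fell (4.76 to 6.01 against 15.1 to 22.0 CPM), as did 2 of 3 tested cholangiocyte markers, with Cftr at 0. Of 4 tested macrophage markers 1 rose and 2 fell, and the sum of the list was 12190 to 12400 CPM against 15200 to 15310. Of 2 tested endothelial markers 1 rose. With DMHCA 5 of 6 stellate cell and fibroblast markers fell as well, to a smaller degree (sum of 152 to 216 CPM). There 1 of 3 mesothelial and 0 of 3 tested cholangiocyte markers fell. Among all genes tested 35.4% were called with MePipHCA and 11.7% with DMHCA. The part of these shifts in the fall of Cyp27a1 was not tested. In bulk RNA fewer cells of a type and less RNA per cell cannot be told apart.

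Whether a ligand's effect on a gene differed between the cell types was tested with an interaction term, fitting the 30 libraries together over 13700 genes. The cell types also differed in medium and in the date their titles carry, and these cannot be told apart. For Cyp27a1 the change with MePipHCA was higher in hepatocytes than in macrophages by 0.79 ± 0.14 (adjusted p = 3.7e-05, 9.66% of genes called). Its change did not differ past the threshold with desmosterol (0.17 ± 0.12, 2.53% of genes called), DMHCA (-0.08 ± 0.13, 2.75%), GW3965 (-0.06 ± 0.12, 3.11%) or T0901317 (-0.21 ± 0.13, 3.64%). For Cyp7b1 with MePipHCA the difference was 2.06 ± 0.78 (adjusted p = 0.0897, and 0.0458 with libraries thinned to equal depth). The other members had too few macrophage counts for such a comparison to be read.

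Over the 18 macrophage libraries the genes whose log2 CPM was most like that of Cyp27a1 were Slc40a1, the iron exporter ferroportin (Pearson r = 0.960), Bcl2l11 (0.955) and C5ar1, a complement receptor (0.953). These are descriptions over libraries that share ligand groups and depth. Over the 6 group means none of these 3 was among the leading 3.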

How the data were processed

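The members were found by symbol in the deposited raw count tables, which hold reads over exons of 1 RefSeq transcript per gene counted by HOMER on mm10, per the file headers; the submitters' processing notes also name STAR, with no versions. The deposited RPKM tables, per the file headers, served for levels between genes (with another Nr1h4 transcript). The members, lists and tests were chosen with earlier results of these data known. The test was edgeR's (version 4.0.16, under R 4.3.3): filterByExpr (minimum count 10), TMM scaling, 1 mean per group over all 6 groups of a cell type (13176 and 11544 genes, 6 and 12 residual degrees of freedom) and a quasi-likelihood test, with Benjamini-Hochberg adjustment over all genes and a threshold of 0.05. The SE is the log2 fold change divided by the root of F. For the interactions the tables were joined by symbol. CPM are TMM-scaled, except the 1 CPM rule for expression, pooled levels and floors, which use library totals. Named beside the members were the LXR genes and up to 4 further bile acid genes per direction passing in each hepatocyte comparison with vehicle. The gene for likeness in hepatocytes was to be Cyp7a1 or else the member called most often; no member was called, so none was used. Same-numbered libraries were related only weakly (correlations of deviations from -0.0223 to 0.0623 in hepatocytes and -0.0708 to 0.142 in macrophages). Their median was 0.00388 against -0.00388 for other numbers in hepatocytes and 0.0262 against -0.0131 in macrophages. With 2 libraries a group the hepatocyte deviations are mirror images, so the second hepatocyte median is fixed by the first. The main test fitted no pairing. Tests were run on simulated data drawn with the same spread for every gene, so that check does not cover genes with low and uneven counts. Alternatives were RLE size factors, DESeq2 1.42.0, no filter, only the groups compared, a replicate block, thinning and leaving out each library.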

Additional observations from a re-analysis of the deposited data

Results flagged for a closer look

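The change of Cyp27a1 with MePipHCA differed between cell types by a test of the difference itself: the log2 fold change was higher in hepatocytes than in macrophages by 0.79 ± 0.14 (adjusted p = 3.7e-05 by edgeR's quasi-likelihood test over 13700 genes). Cyp27a1 fell in macrophages (-0.96 ± 0.10, adjusted p = 3.8e-10) and did not pass in hepatocytes (-0.15 ± 0.10, adjusted p = 0.587). Over 16 alternatives the difference ran from 0.71 to 0.85.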

How the results depend on the processing

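Of the 792 recomputed hepatocyte values of members, 791 kept their side of the threshold; the exception was Slc10a1 with GW3965 without the filter, which made 1 member called there in place of 0. In 59 of them the sign turned in a value that never passed. In macrophages the members called with MePipHCA were 2, with 1 under thinning to equal depth and 1 when only the groups compared were fitted, since Cyp7b1 was not tested there, and 1 to 2 with a library left out. With T0901317 they were 0, and 0 to 1 with a library left out. Between MePipHCA and DMHCA they were 1, and 1 to 2 with a library left out. For the interaction with MePipHCA they were 1, and 2 under thinning. The causes were not tested except where stated. The Cyp27a1 fall with MePipHCA ran from -1.01 to -0.87 over 12 alternatives. With the replicate block it was -0.96 (adjusted p = 5.1e-10), and the block changed no call of a member. Most libraries, 10 of 12 in hepatocytes and 12 of 18 in macrophages, correlated best with their own number, so a weak structure by number cannot be set aside. In hepatocytes the 2 libraries of a group always give the same answer, so these 12 are not independent. Of the further bile acid genes called in hepatocytes, 79 of 100 recomputed values stayed past the threshold; those called with MePipHCA were 4 (7 without the filter, 9 with only the groups compared, 1 to 6 with a library left out) and with desmosterol 2 (4 without the filter, 0 to 1). At least 5 CPM in every library left 4 hepatocyte genes in place of 5 and 1 macrophage gene.

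Genes called over the whole table moved more. In hepatocytes desmosterol called 48 (97 with DESeq2, 139 without the filter, 15 to 41 with a library left out), DMHCA 0 (22 without the filter, 1 with the block, 0 to 27), MePipHCA 286 (490 with only the groups compared, 114 to 207), GW3965 63 (108 with DESeq2, 163 without the filter, 107 with only the groups compared, 28 to 54) and T0901317 124 (252 with DESeq2, 256 without the filter, 48 to 107). Between ligands, MePipHCA and DMHCA gave 435 (177 to 779), GW3965 and T0901317 0 (9 without the filter), DMHCA and T0901317 130 (216, 271 and 63 for the same 3 settings, 59 to 168) and MePipHCA and T0901317 797 (298 to 482). In macrophages desmosterol called 1097 (681 under thinning, 665 to 1042), DMHCA 1350 (898 to 1205), GW3965 against T0901317 2 (15 without the filter, 8 with only the groups compared, 1 under thinning, 0 to 2) and DMHCA against T0901317 591 (336 to 495). The interactions called 346 with desmosterol (225 under thinning, 207 to 301), 377 with DMHCA (202 to 648), 426 with GW3965 (260 to 383) and 498 with T0901317 (331 to 483). Counts of 0 to 6 in Cyp7a1 and of 0 to 17 in Nr0b2 per hepatocyte library limit what can be said of these genes.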

Other observations

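Of the 45 further bile acid genes 16 were tested in macrophages, and those named here were chosen after their values were seen. Abcc3 (MRP3), an exporter of conjugated bile acids, rose with all 5 ligands, from 0.97 ± 0.06 with desmosterol to 1.81 ± 0.06 with T0901317 on the log2 scale. Slco2b1, an organic anion carrier, fell by 1.38 ± 0.11 with MePipHCA. Ephx1 rose by 0.98 ± 0.11 with GW3965 and 0.76 ± 0.11 with T0901317. Ugt1a1, a bilirubin-conjugating enzyme whose gene shares exons with other Ugt1a genes, fell by 0.83 ± 0.08 with MePipHCA. These calls of edgeR's quasi-likelihood test kept their side of the threshold under each alternative run. Abcb4 was also called with all 5 ligands, from 0.79 ± 0.31 with MePipHCA to 1.22 ± 0.28 with GW3965, but each of these calls was lost without at least 1 library. With GW3965 it was lost without GW3965 replicate 3 (adjusted p = 0.0565), with T0901317 without vehicle replicate 2 (0.0578), and with the other 3 ligands without vehicle replicate 2 (0.302 to 0.381) and without several other libraries. Over all called genes of the list 281 of 324 recomputed values stayed past the threshold. Among the 16 genes, those that rose and fell were 3 and 1 with desmosterol (9.5% of all genes called), 4 and 1 with DMHCA (11.7%) and 4 and 4 with MePipHCA (35.4%). They were 3 and 2 with each of GW3965 (13.2%) and T0901317 (12.8%).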
